A study of Mus musculus with 6 samples.

Results

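Extracellular ATP and adenosine signalling was examined through 10 genes, taken by symbol from a table of 54532 genes: the ATP-gated channel genes P2rx4 and P2rx7, the nucleotide receptor genes P2ry2, P2ry6 and P2ry14, the adenosine receptor genes Adora2a, Adora2b and Adora3, and the ectonucleotidase genes Entpd1 (CD39) and Nt5e (CD73). All 10 were found, once each. The table holds RNA sequencing of 6 libraries from mouse bone marrow-derived macrophages (BMDMs) kept in vitro with ID8 cells, a mouse ovarian cancer line. In 3 libraries the ID8 cells had first been given 40 µM of the DNA-damaging drug cisplatin, and in the 3 others PBS alone. The comparison asks how cancer cells exposed to the drug change the macrophages beside them. Per the methods, the collected cells were monocytes from the marrow of young adult C57BL/6 mice, whose sex is not given. ID8 cells were present in both groups, and no BMDMs grown alone were sequenced. The methods call the replicates biological without saying whether the 3 libraries of a group came from separate cultures or marrow donors, so the p-values measure the spread between these libraries, whatever its source.

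ATP leaves cells that are stressed or dying and acts on neighbouring cells as a danger signal. P2X receptors are ion channels that ATP opens, and P2Y receptors are G protein-coupled receptors for ATP, UTP, UDP or UDP-sugars. On the cell surface CD39 removes phosphates from ATP and ADP to give AMP, and CD73 turns AMP into adenosine. Adenosine acts on its own G protein-coupled receptors, of which those encoded by Adora2a and Adora2b raise cyclic AMP and dampen inflammatory responses of macrophages, while that of Adora3 lowers cyclic AMP.

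P2rx7 and P2ry6 were upregulated in the libraries of BMDMs kept with cisplatin-pretreated ID8 cells, each to about the same extent. Whether the change arose in the BMDMs or from the mix of cells was not tested. P2ry2 and Entpd1 were higher by smaller amounts, P2rx4 and the adenosine receptor genes Adora2a and Adora2b differed little, and P2ry14, Adora3 and Nt5e were listed at low levels. Levels are in FPKM, reads per kilobase of gene length and per 1000000 reads. All log2 fold changes compare cisplatin with PBS after adding 1 to the FPKM, which understates the change of low genes, and are given with 95% intervals and with p-values adjusted over all 13441 tested genes by limma. A gene was tested if it reached 1 FPKM in at least 3 libraries, and called up- or downregulated where it changed by 1 or more on the log2 scale with an adjusted p below 0.05. Of the 10 genes, 7 were tested. Of these, 2 were upregulated, where 4.67% of all tested genes were, and 0 were downregulated, where 11.3% of all tested genes were. Limma voom on the recovered reads of the same genes also called 2 and 0, against 9.13% and 13.9% of all tested genes. At an unadjusted p under 0.05 limma had 5 higher and 1 lower, a threshold at which no share of all genes was computed. Counts over the 7 genes that passed the filter do not stand for all 10. At an adjusted p under 0.05 alone 5 of the 7 were higher and 1 was lower, against 32.9% and 35.1% of all tested genes. All 3 cisplatin libraries lay above all 3 PBS libraries in 5 of the 7, against 35.2% of all tested genes. The median log2 fold change of the 7 was 0.45, against -0.0011 over all tested genes.

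In RNA from a mixture of cells, a change in the number of cells of a type and a change in RNA per cell cannot be told apart. All 10 macrophage markers examined, Adgre1, Csf1r and Cd68 among them, were detected and were higher in every cisplatin library than in any PBS library, and their summed level was 4200 to 4355 FPKM against 1640 to 1650 FPKM. Most of that sum was Lyz2, at 3459 FPKM with cisplatin and 1161 FPKM with PBS on average. Of 19 genes of ID8 and mesothelial cells, 12 were lower in every cisplatin library, 3 were higher and 4 overlapped. Their sum was 1183 to 1208 against 1483 to 1585 FPKM, and without Thbs1, which went the other way, 257 to 280 against 1341 to 1452 FPKM. Krt7, Epcam, Igfbp5, Muc16 and Col3a1 of that list stayed under 1 FPKM in every library. Lymphocyte genes summed to 272 to 279 against 116 to 126 FPKM, with 7 of 11 higher and Cd3e, Cd3g and Ncr1 under 1 FPKM throughout. Neutrophil and granule genes summed to 8814 to 9064 against 4743 to 4906 FPKM, with 7 of 8 higher, and dendritic cell genes to 43.9 to 46.1 against 18.7 to 20.1 FPKM, with 4 of 6 higher and Xcr1 under 1 FPKM. The 4 Y-linked genes, which a female-derived line such as ID8 lacks, were detected in every library, so cells of male mice were present in each. These genes summed to 41.6 to 42.8 against 19.5 to 22.7 FPKM. The part of these shifts in the results below was not tested. Scaling the libraries to equal Y-linked levels moved the median log2 fold change of all tested genes from -0.0011 to -0.83, and where the direction of a gene of the pathway named here turns under that scaling it is stated. Of the markers, it turned 5 of 10 macrophage genes (Adgre1, Csf1r and Cd68 among them), 8 of 11 lymphocyte genes, 3 of 8 neutrophil and granule genes and 2 of 19 ID8 and mesothelial genes, and after it the summed neutrophil and granule genes overlapped between the groups.

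The P2X receptor genes P2rx7 (ENSMUSG00000029468, chromosome 5, 122643911 to 122691432, plus strand) and P2rx4 (ENSMUSG00000029470, chromosome 5, 122707544 to 122729738, plus strand) are neighbours, 16.1 kb apart on GRCm38 with no protein-coding gene between them. Their promoter windows, which cover 250 bases before and 50 after a transcript start, are given because one of these adjacent genes was upregulated and the other was not. The sequences are those of RefSeq (GRCm38.p6), which lists 2 starts for P2rx7, the first of them 122643927 and the second 122650383. Capitals mark the letters GAGGAAGT, the core bound by PU.1, a transcription factor of the macrophage lineage, here found on the opposite strand and therefore read as its complement.
P2rx7 first start, chr5:122643677-122643976, plus strand: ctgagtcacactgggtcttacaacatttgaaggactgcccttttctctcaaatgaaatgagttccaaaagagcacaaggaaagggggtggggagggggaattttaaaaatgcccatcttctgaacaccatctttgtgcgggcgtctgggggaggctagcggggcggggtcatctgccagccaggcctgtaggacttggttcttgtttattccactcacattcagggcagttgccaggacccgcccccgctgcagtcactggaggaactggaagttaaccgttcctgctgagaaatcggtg
P2rx7 second start, chr5:122650133-122650432, plus strand: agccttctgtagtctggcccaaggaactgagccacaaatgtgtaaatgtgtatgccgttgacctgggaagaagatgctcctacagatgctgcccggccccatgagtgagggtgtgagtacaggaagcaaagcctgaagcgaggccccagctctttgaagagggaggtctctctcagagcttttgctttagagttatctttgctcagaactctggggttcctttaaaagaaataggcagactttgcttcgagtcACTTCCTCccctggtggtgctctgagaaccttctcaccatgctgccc
P2rx4, chr5:122707294-122707593, plus strand: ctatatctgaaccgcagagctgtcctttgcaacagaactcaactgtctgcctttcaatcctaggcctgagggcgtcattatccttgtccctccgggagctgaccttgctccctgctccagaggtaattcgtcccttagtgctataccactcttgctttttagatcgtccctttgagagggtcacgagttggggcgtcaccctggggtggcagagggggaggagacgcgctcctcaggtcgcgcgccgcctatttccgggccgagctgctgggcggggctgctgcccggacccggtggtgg
The P2rx4 window had 18 CpG dinucleotides and 60.3% G and C, against 8 and 53.3% at the first start of P2rx7 and 4 and 51.7% at the second. Windows were found for 8 of the 10 genes, 14 in all, and were searched on both strands for GAGGAAGT, for the interferon-stimulated response element core GAAANNGAA, the gamma-activated site TTCNNNGAA and the cyclic AMP response element TGACGTCA, motifs that do not overlap in these windows. Only GAGGAAGT was found, in 2 windows, the second of P2rx7 and that of Adora3, while 3.20% of 32851 mouse promoter windows of this length hold it. The shares that hold GAAANNGAA, TTCNNNGAA and TGACGTCA are 8.56%, 8.30% and 1.79%. A match describes these letters only, and 12 of the windows held none of the 4 motifs.

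P2rx7 encodes the P2X7 receptor, a channel that needs high ATP to open and whose opening activates the NLRP3 inflammasome. It stood at 7.92, 6.96 and 6.50 FPKM in the cisplatin libraries and at 2.62, 3.12 and 2.65 FPKM in the PBS libraries. The lowest cisplatin library was thus more than 2 times the highest PBS library. The mean went from 2.80 ± 0.28 to 7.13 ± 0.72 FPKM (SD, n = 3 each), a ratio of 2.55, and the log2 fold change was 1.10 (95% interval 0.89 to 1.31, SE 0.088, limma, adjusted p = 3.72e-05). Recovered from the FPKM values, between 641 and 804 reads lay behind each cisplatin value and between 245 and 290 behind each PBS value. An exon of P2rx7 shares 119 of 5970 bases with the microRNA gene Mir8115. P2rx7 was called in each of the 6 fits with 1 library left out, with log2 fold changes of 1.03 to 1.16. Under the Y-linked scaling its fold change was 0.29 and no longer reached the threshold, with the median of all genes at -0.83. A distance from that median would largely undo the scaling and is no separate check.

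P2rx4 encodes the P2X4 receptor, a channel found largely on lysosomes in macrophages. Its level was 13.2, 12.8 and 12.9 FPKM with cisplatin and 11.9, 11.9 and 12.5 FPKM with PBS. The groups did not overlap, but the gap between the closest libraries was small. The means were 12.97 ± 0.20 and 12.1 ± 0.36 FPKM (SD, n = 3 each), and the log2 fold change of 0.09 had an interval that included 0 (-0.0046 to 0.19, limma, adjusted p = 0.0817). It was 0.19 with an adjusted p of 0.00302 by limma voom on the recovered reads, and -0.83, at the median of all genes, under the Y-linked scaling. The ratio of P2rx7 to P2rx4 within a library was 0.600, 0.542 and 0.505 with cisplatin against 0.221, 0.262 and 0.212 with PBS. Such a ratio does not depend on scaling but can shift with the mix of cells, which was not tested. The mean ratio was 0.549 ± 0.048 against 0.231 ± 0.027 (SD, n = 3 each, two-sided exact permutation test, p = 0.1, the smallest that 3 libraries against 3 allow).

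The P2Y receptor genes were next. P2ry6 (ENSMUSG00000048779, chromosome 7, 100937630 to 100974649, minus strand) encodes a receptor for UDP that is known for stimulating phagocytosis. It stood at 8.43, 8.92 and 8.73 FPKM in the cisplatin libraries and at 3.46, 3.76 and 3.33 FPKM in the PBS libraries. The groups lay far apart and the libraries of each group close together. The means were 8.69 ± 0.25 and 3.52 ± 0.22 FPKM (SD, n = 3 each), a ratio of 2.47, with a log2 fold change of 1.10 (95% interval 0.97 to 1.24, SE 0.057, limma, adjusted p = 4.54e-06). Without each library in turn the fold change was 1.07 to 1.14 and always called. Under the Y-linked scaling it was 0.26, below the threshold.

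P2ry2 (ENSMUSG00000032860, chromosome 7, 100996568 to 101012866, minus strand) lies 21.9 kb from P2ry6 with no gene between them, and encodes a receptor for ATP and UTP through which phagocytes are drawn to dying cells. It was the most abundant of the 10 genes with cisplatin, at 22.4, 25.6 and 24.8 FPKM, against 16.8, 15.3 and 17.0 FPKM with PBS. Every cisplatin library lay above every PBS library. The log2 fold change of 0.54 (95% interval 0.39 to 0.69, limma, adjusted p = 0.000283) did not reach the threshold of 1, and it turned to -0.41 under the Y-linked scaling. Within a library the ratio of P2ry6 to P2ry2 was 0.376, 0.349 and 0.352 with cisplatin and 0.206, 0.246 and 0.196 with PBS, so that the groups did not overlap. Its means were 0.359 ± 0.015 and 0.216 ± 0.027 (SD, n = 3 each, two-sided exact permutation test, p = 0.1, the smallest possible).

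P2ry14 (ENSMUSG00000036381, chromosome 3, 59113855 to 59153618, minus strand), a receptor gene for UDP-glucose and related sugars, did not reach 1 FPKM in any library and so was not tested with the others. It was listed at 0.56, 0.61 and 0.55 FPKM with cisplatin and at 0.20, 0.23 and 0.22 FPKM with PBS. The groups did not overlap, and the values rested on 100 to 110 and on 38 to 39 reads per library. A limma voom fit on the recovered reads of the 15494 genes with a mean of at least 10 per library, chosen after seeing the data, gave a log2 fold change of 1.49 (95% interval 1.05 to 1.93, adjusted p = 3.15e-06). Limma on log2(FPKM + 1) with no filter, which understates changes at such levels, gave 0.37 (adjusted p = 0.00902), below the fold threshold. After the Y-linked scaling its mean FPKM was 0.405 with cisplatin and 0.305 with PBS. In the voom fit on genes with at least 10 reads, 3 of the 10 genes passed both thresholds upwards, P2rx7, P2ry6 and P2ry14, against 10.7% of the genes in that fit.

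**Figure D1:**
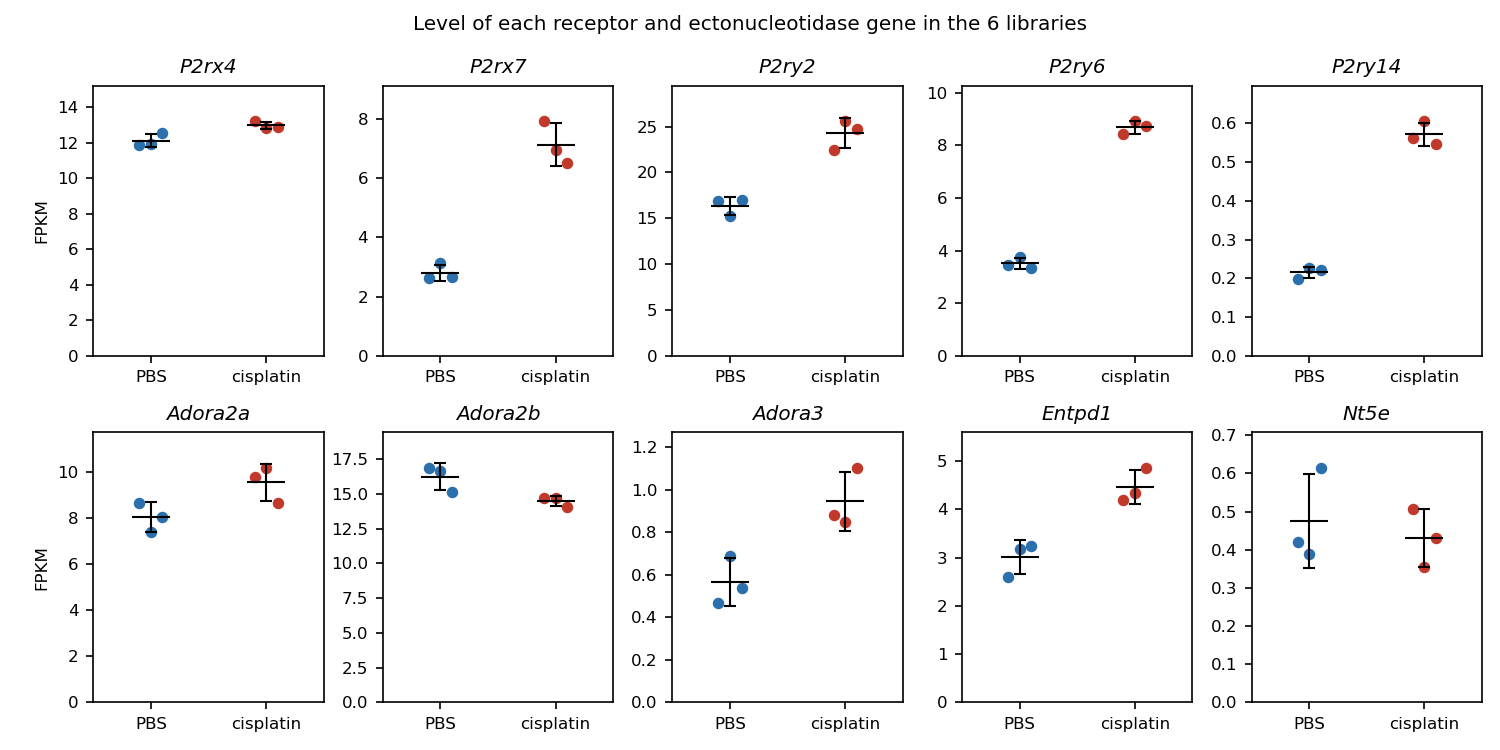
Level of each of the 10 genes in FPKM (vertical axis, from 0, a separate scale for each gene) in the 3 PBS and 3 cisplatin libraries, with 1 point for each library, the long bar at the mean and the error bar showing the SD. P2rx7, P2ry6 and P2ry14 show the widest gaps between groups, while Adora2a and Nt5e overlap.

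Of the adenosine receptor genes, Adora2a (ENSMUSG00000020178, chromosome 10, 75316877 to 75334784, plus strand) encodes the receptor that responds to low adenosine. It stood at 9.79, 10.2 and 8.66 FPKM with cisplatin and at 8.67, 7.40 and 8.04 FPKM with PBS. The lowest cisplatin library and the highest PBS library were level, so the groups overlapped. The log2 fold change was 0.22 (95% interval 0.037 to 0.41, limma, adjusted p = 0.0387), and it passed an adjusted p of 0.05 in only 2 of the 6 leave-one-out fits, those without cisplatin replicate 3 (adjusted p = 0.0186) and without PBS replicate 1 (adjusted p = 0.0297). Without cisplatin replicate 1, cisplatin replicate 2, PBS replicate 2 or PBS replicate 3 the adjusted p was 0.0992, 0.118, 0.110 and 0.0837. The sign turned under the Y-linked scaling (-0.67).

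Adora2b (ENSMUSG00000018500, chromosome 11, 62248984 to 62266453, plus strand) encodes a receptor that needs more adenosine. Its level was 14.7, 14.7 and 14.1 FPKM with cisplatin and 16.9, 16.7 and 15.1 FPKM with PBS, the only 1 of the 7 tested genes to lie lower in every cisplatin library. The log2 fold change was -0.15 (95% interval -0.28 to -0.024, limma, adjusted p = 0.0392). Leaving out any library except PBS replicate 3 raised the adjusted p above 0.05, to between 0.0622 and 0.120, and without PBS replicate 3 it was 0.0122. By voom on the recovered reads the fold change was -0.08 (adjusted p = 0.417), and under the Y-linked scaling -1.09, with the median of all genes at -0.83. The ratio of Adora2a to Adora2b was 0.665, 0.693 and 0.615 with cisplatin against 0.514, 0.444 and 0.533 with PBS. The groups did not overlap in this ratio, with means of 0.658 ± 0.040 and 0.497 ± 0.047 (SD, n = 3 each, two-sided exact permutation test, p = 0.1, the smallest possible).

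Adora3 (ENSMUSG00000000562, chromosome 3, 105870858 to 105908926, plus strand) encodes a receptor coupled to inhibitory G proteins and was listed at 0.88, 0.85 and 1.10 FPKM with cisplatin and at 0.47, 0.69 and 0.54 FPKM with PBS. All cisplatin libraries were above all PBS libraries, but only 1 reached 1 FPKM, and 31 to 68 reads lay behind each value. The voom fit on genes with at least 10 reads gave a log2 fold change of 0.84 (95% interval 0.31 to 1.37, adjusted p = 0.00639), whereas limma on log2(FPKM + 1) with no filter gave 0.31 with an adjusted p of 0.108. The direction turned under the Y-linked scaling, with a mean of 0.670 FPKM with cisplatin and 0.796 FPKM with PBS. The gene shares 779 of its 3729 exon bases with Tmigd3 on the same strand, so its reads cannot be given to it with certainty. Its RefSeq promoter window is shown because it was the other of the 2 to hold GAGGAAGT (capitals, again on the opposite strand).
Adora3, chr3:105904171-105904470, plus strand: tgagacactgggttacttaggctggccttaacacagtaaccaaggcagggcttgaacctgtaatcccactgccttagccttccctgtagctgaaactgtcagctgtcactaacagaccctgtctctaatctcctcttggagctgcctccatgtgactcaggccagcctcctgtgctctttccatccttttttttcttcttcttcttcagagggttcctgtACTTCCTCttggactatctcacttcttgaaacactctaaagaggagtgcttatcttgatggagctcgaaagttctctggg
The RefSeq start in this window, 105904421, lies inside the gene as the table draws it, downstream of the start that the table gives.

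The ectonucleotidase genes stood at different levels. Entpd1 (ENSMUSG00000048120, chromosome 19, 40612366 to 40741602, plus strand), which encodes CD39, was at 4.19, 4.34 and 4.86 FPKM with cisplatin and at 2.60, 3.19 and 3.25 FPKM with PBS. All cisplatin libraries lay above all PBS libraries. The mean went from 3.01 ± 0.36 to 4.47 ± 0.35 FPKM (SD, n = 3 each), and the log2 fold change of 0.45 (95% interval 0.24 to 0.66, limma, adjusted p = 0.00346) stayed below the threshold and turned to -0.34 under the Y-linked scaling. Nt5e (ENSMUSG00000032420, chromosome 9, 88327197 to 88372092, plus strand), which encodes CD73, stayed under 1 FPKM in every library, at 0.51, 0.35 and 0.43 FPKM with cisplatin and 0.42, 0.39 and 0.61 FPKM with PBS. The groups overlapped, and the fold change by the same voom fit, on 50 to 82 reads per library, was -0.03 with an interval of -0.51 to 0.45 (adjusted p = 0.910), and with no filter limma gave -0.04 (adjusted p = 0.782). A difference within that interval was not detectable at this depth. The ratio of Nt5e to Entpd1 was 0.121, 0.0815 and 0.0883 with cisplatin and 0.162, 0.122 and 0.189 with PBS, the highest cisplatin library lying just below the lowest PBS library. The means were 0.0968 ± 0.021 and 0.158 ± 0.034 (SD, n = 3 each, two-sided exact permutation test, p = 0.1, the smallest possible).

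**Figure D2:**
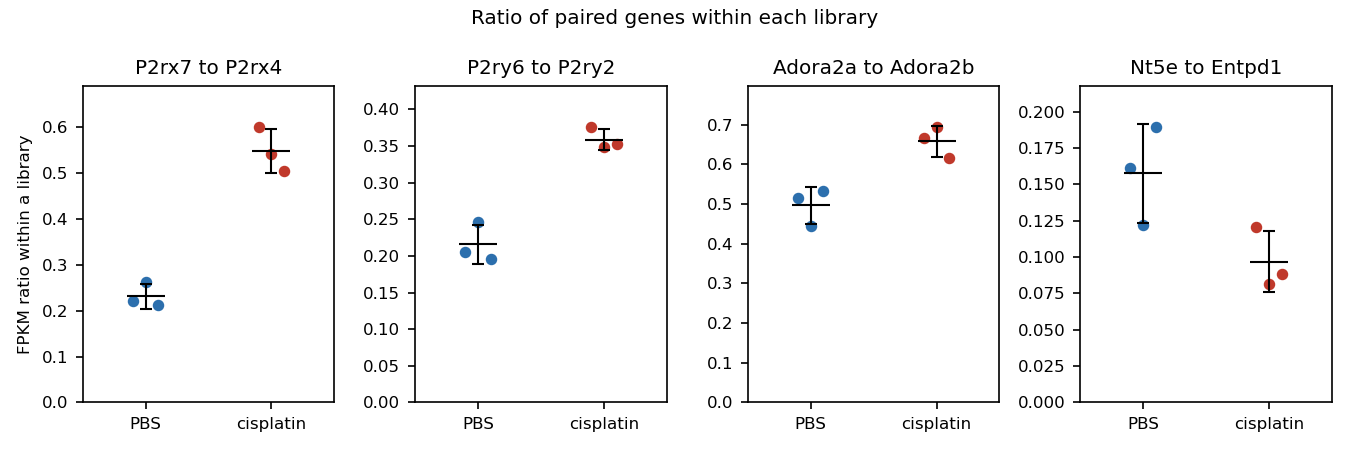
Ratio of the FPKM of related genes within each library (vertical axis, from 0), for the P2X, P2Y, adenosine receptor and ectonucleotidase pairs, in 3 PBS and 3 cisplatin libraries with the mean and SD. The first 3 ratios lie higher in every cisplatin library and the ratio of Nt5e to Entpd1 lies lower.

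Ranked by mean FPKM with PBS, the order was P2ry2, Adora2b, P2rx4, Adora2a, P2ry6, Entpd1, P2rx7, Adora3, Nt5e and P2ry14. The ranges of the libraries overlapped between P2ry2 and Adora2b, between Entpd1 and P2rx7, and between Adora3 and Nt5e, and those neighbours did not differ beyond their spread. With cisplatin the order was P2ry2, Adora2b, P2rx4, Adora2a, P2ry6, P2rx7, Entpd1, Adora3, P2ry14 and Nt5e, and only Adora2a and P2ry6 overlapped. P2rx7 thus moved from level with Entpd1 to above it, and P2ry14 from below Nt5e to above it.

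**Figure D3:**
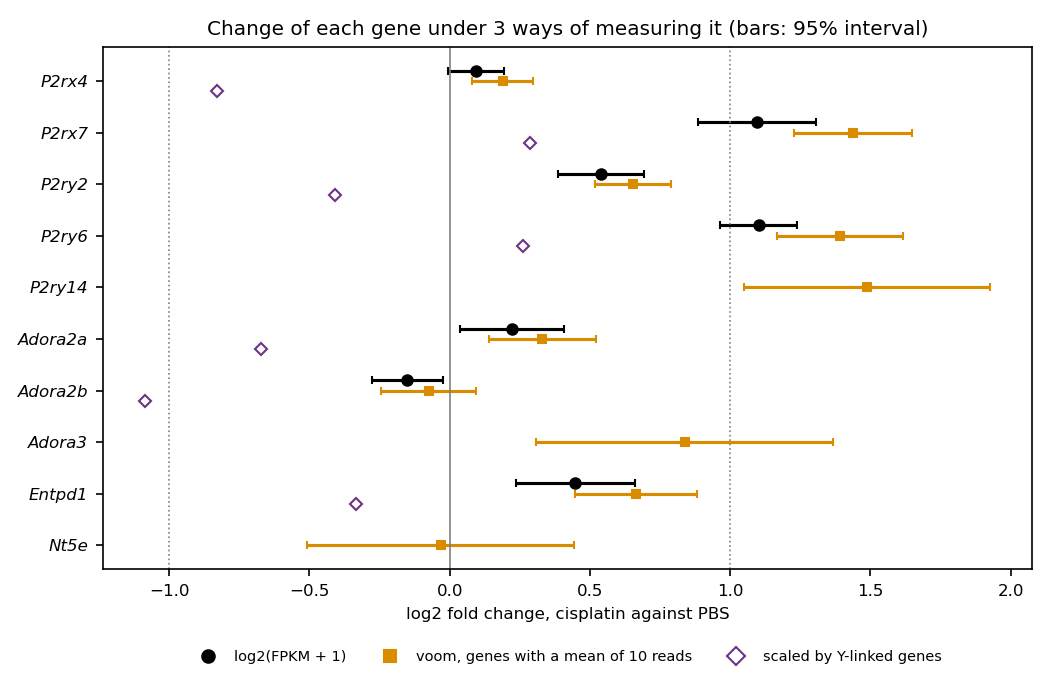
Log2 fold change of each of the 10 genes, cisplatin against PBS (horizontal axis), on log2(FPKM + 1) (circles) and by limma voom on recovered reads of genes with a mean of at least 10 reads (squares, the fit chosen after seeing the data), with 95% intervals, and on log2(FPKM + 1) after scaling by the Y-linked genes (diamonds, no interval drawn). Dotted lines mark the threshold of 1 in size. P2rx7 and P2ry6 lie above 0 in all 3, and for P2ry14, Adora3 and Nt5e, which did not pass the filter, only the voom values are drawn.

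The other genes of the pathway were counted over lists of receptors, enzymes, channels and downstream proteins, 96 of which were in the table and 72 tested. Of these 3 were upregulated (P2ry1, Nlrp3 and Pde8a) and 7 downregulated (Enpp1, Enpp4, Xdh, Gsdmd, Il18, Adcy6 and Nr4a1), against 4.67% and 11.3% of all tested genes, and the median log2 fold change of the 72 was 0.17. The shares, 3 and 7 of 72, were near those of all tested genes. Under the Y-linked scaling 0 were upregulated and 23 downregulated, where 0.632% and 38.5% of all tested genes were. By voom on the recovered reads of the 72 genes 7 were called higher and 9 lower, against 9.13% and 13.9% of all tested genes. The voom fit on genes with at least 10 reads, which held 80 of the 96, called 8 higher and 13 lower, against 10.7% and 15.5% of its genes. At an adjusted p under 0.05 alone 32 were higher and 22 lower, against 32.9% and 35.1% of all tested genes, and 18 were neither.

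Among the other nucleotide receptors, P2ry1, a receptor gene for ADP, was at 3.77, 3.52 and 3.33 FPKM with cisplatin and at 0.90, 0.97 and 1.07 FPKM with PBS. It was upregulated (log2 fold change 1.20, limma, adjusted p = 1.41e-05) and shares 992 of 4291 exon bases with the antisense gene Gm37035, from which it cannot be separated if strand was not used in counting. P2ry10, a receptor gene of lymphoid cells for lysophosphatidylserine, had the highest level of the other P2Y genes, at 6.59, 6.62 and 5.42 against 3.09, 2.97 and 3.33 FPKM (log2 fold change 0.80, adjusted p = 0.000149, called at 1.07 by voom and turned to -0.012 by the Y-linked scaling). All 3 tested genes of this list were higher at an adjusted p under 0.05 alone, where 32.9% of all tested genes were. P2ry13, also of this list and named after its values were seen, had a log2 fold change of 0.61, turned to -0.032 by the Y-linked scaling. Of the other P2X genes 2 of 5 were tested, and P2rx1 had a log2 fold change of 0.53 (adjusted p = 0.00517, turned to -0.24 by the Y-linked scaling). P2ry4, a receptor gene for UTP named after its values were seen, was not tested and lay the other way, at 0.07, 0.01 and 0.05 FPKM with cisplatin and 0.52, 0.58 and 0.60 FPKM with PBS, on 1 to 5 and on 40 to 41 reads (voom on genes with at least 10 reads, log2 fold change -3.56, 95% interval -4.67 to -2.46, adjusted p = 5.92e-06). The remaining adenosine receptor gene, Adora1, was also lower in every cisplatin library, at 0.11, 0.07 and 0.07 FPKM against 0.29, 0.21 and 0.20 FPKM. Its values rested on 7 to 30 reads (same fit, log2 fold change -1.32, 95% interval -2.20 to -0.44, adjusted p = 0.00897), and it shares 1162 of 5785 exon bases with Mybph on the opposite strand.

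Of 8 other ectonucleotidase genes 4 were tested and 2 downregulated, where 11.3% of all tested genes were. Enpp4, which encodes a surface enzyme that splits dinucleotides, stood at 5.97, 5.14 and 5.11 FPKM with cisplatin and at 18.2, 18.8 and 18.4 FPKM with PBS (log2 fold change -1.61, limma, adjusted p = 1.10e-06). Enpp1, whose enzyme makes AMP and pyrophosphate from ATP and also breaks down cGAMP, stood at 2.13, 2.08 and 2.31 FPKM against 5.80, 7.29 and 6.15 FPKM (log2 fold change -1.22, adjusted p = 2.18e-05). In both genes every cisplatin library was below every PBS library. Acpp, a phosphatase gene named after its values were seen, lay the other way, at 3.67, 3.45 and 3.46 FPKM against 1.22, 1.52 and 1.79 FPKM (log2 fold change 0.86, adjusted p = 0.000236, and 0.16 under the Y-linked scaling). Voom on recovered reads called 1 of the 4 higher (Acpp, 1.34) and 3 lower, against 9.13% and 13.9% of all tested genes. Of the intracellular relatives of CD39, 3 of 5 were tested and limma and voom called 0. By limma's adjusted p alone 1 was lower, where 35.1% of all tested genes were. It was Entpd5, the most abundant (log2 fold change -0.27, adjusted p = 0.00127). Bst1, an enzyme gene of the extracellular NAD route, was at 103 FPKM with cisplatin and 82.8 FPKM with PBS on average (log2 fold change 0.31, -0.68 under the Y-linked scaling).

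None of the 9 tested genes of nucleotide release and none of the 4 tested nucleoside transporter genes was called by limma or by voom on the same genes. Over all tested genes limma called 4.67% higher and 11.3% lower. By the adjusted p alone 4 and 2 were higher and 2 and 1 lower, against 32.9% and 35.1% of all tested genes. At an unadjusted p under 0.05, 5 and 2 were higher and 2 and 1 lower, with no share of all genes computed. Slc29a1, the transporter gene that carries adenosine in and out of cells, came nearest, at 10.02, 11.4 and 11.3 FPKM with cisplatin and 20.1, 19.4 and 20.2 FPKM with PBS (log2 fold change -0.82, adjusted p = 1.75e-05). Lrrc8d, a subunit gene of volume-regulated anion channels, had a log2 fold change of 0.22, turned to -0.72 by the Y-linked scaling. Among genes too low for the filter, named after their values were seen, Lrrc8e, another subunit gene of these channels, was listed at 0.06, 0.07 and 0.19 FPKM with cisplatin and 1.45, 0.99 and 1.14 FPKM with PBS. The transporter gene Slc28a3 was listed at 0.04, 0.04 and 0.02 against 0.21, 0.14 and 0.24 FPKM. Both were lower in the voom fit on genes with at least 10 reads (log2 fold changes -3.49 and -2.26, adjusted p = 8.84e-07 and adjusted p = 0.00041), on 4 to 13 and 3 to 6 reads in the cisplatin libraries. In adenosine breakdown and salvage, 1 of 8 tested genes was called, as lower, where 11.3% of all tested genes were. Xdh, which encodes xanthine dehydrogenase, the enzyme that makes uric acid, stood at 10.1, 10.1 and 11.2 FPKM with cisplatin and at 37.6, 39.8 and 39.1 FPKM with PBS (log2 fold change -1.79, adjusted p = 2.86e-07). Hprt, the salvage enzyme gene with the highest level, had a log2 fold change of -0.19.

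Downstream of P2X7, the inflammasome list held 8 tested genes, 1 upregulated and 2 downregulated, where 4.67% and 11.3% of all tested genes were. Nlrp3, the sensor gene, stood at 51.7, 55.8 and 55.0 FPKM with cisplatin and at 16.8, 18.1 and 17.3 FPKM with PBS (log2 fold change 1.58, limma, adjusted p = 3.41e-07). Gsdmd, which encodes the pore protein gasdermin D, stood at 47.4, 47.5 and 46.0 against 166, 152 and 165 FPKM (log2 fold change -1.76, adjusted p = 1.66e-07). Il18, a cytokine gene of the pathway, stood at 0.97, 1.48 and 1.41 against 4.55, 5.04 and 4.32 FPKM (log2 fold change -1.31, adjusted p = 4.51e-05). The sensor and the P2rx7 receptor were thus higher in every cisplatin library, and the pore and Il18 lower. Il1b, the most abundant of the list, was at 193 FPKM with cisplatin and 125 FPKM with PBS on average (log2 fold change 0.62, adjusted p = 1.98e-05, turned to -0.37 by the Y-linked scaling).

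For the G protein and cyclic AMP side of the receptors, 0 of 7 G protein subunit genes, 2 of 15 genes of cyclic AMP synthesis, breakdown and kinase, and 1 of 7 cyclic AMP responsive factor genes were called. Over all tested genes 4.67% were called higher and 11.3% lower. By limma's p, adjusted or not, 3 of the subunit genes were higher and 3 lower, and voom called 1 of them lower. By the adjusted p 32.9% and 35.1% of all tested genes were, and voom called 9.13% higher and 13.9% lower. Adcy6, an adenylate cyclase gene, stood at 3.95, 5.13 and 4.75 FPKM with cisplatin and at 13.8, 13.2 and 14.6 FPKM with PBS (log2 fold change -1.41, limma, adjusted p = 9.94e-06), with 605 of 6782 exon bases shared with the antisense gene Gm29331. Pde8a, which encodes a phosphodiesterase that degrades cyclic AMP, stood at 12.5, 11.1 and 11.1 against 4.47, 5.43 and 4.54 FPKM (log2 fold change 1.11, adjusted p = 2.36e-05). Nr4a1, an early response factor gene, stood at 5.33, 5.68 and 5.61 against 21.0, 18.9 and 18.6 FPKM (log2 fold change -1.65, adjusted p = 7.56e-07). Nr4a3, of the same family and list and named after its values were seen, lay the other way, at 3.03, 2.63 and 2.39 against 1.19, 1.36 and 1.42 FPKM (log2 fold change 0.66, adjusted p = 0.000699, and 0.011 under the Y-linked scaling). It was called higher by voom on recovered reads (1.11), which called 1 of this list higher and 1 lower and likewise 1 and 1 of the list on cyclic AMP synthesis, breakdown and kinase. The groups of Adcy6, Pde8a and Nr4a1 did not overlap, with Adcy6 and Nr4a1 lower and Pde8a higher with cisplatin. The most abundant genes of these lists changed less, with log2 fold changes of 0.21 for Gnai2, -0.12 for Prkar1a and 0.43 for Atf1, and Gnai2 and Atf1 turned to -0.78 and -0.53 under the Y-linked scaling.

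**Figure D4:**
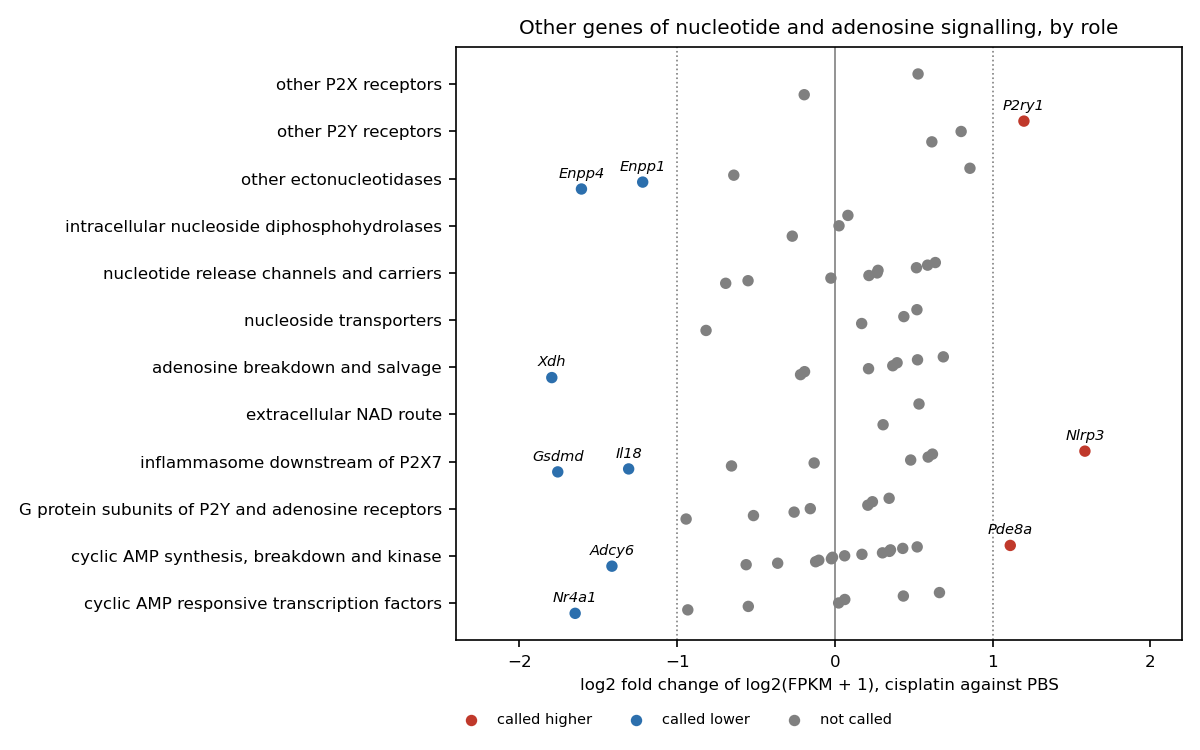
Log2 fold change, cisplatin against PBS on the log2(FPKM + 1) scale (horizontal axis), of the 72 tested other genes of the pathway, 1 point for each gene, in rows by role, with dotted lines at the threshold of 1 in size. The 3 upregulated genes (red) and 7 downregulated genes (blue) are named, and the grey genes were not called.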

How the data were processed

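Messenger RNA of 6 co-culture libraries, 3 per group by the labels, was sequenced by the authors, who deposited 1 FPKM value per gene and library. The submitters' processing notes name fastp, HISAT2 2.0.5, featureCounts 1.5.0-p3 and mm10, whereas the study's methods name LifeScope for alignment and counting and DESeq2 for testing. Strand use in counting is not given in the sources used here. Coordinates are those of the table, and all 10 genes had the same ones in GENCODE M21 (GRCm38). FPKM times gene length gave whole reads (tolerance 0.05) for 100% of values under 200 reads, between 15776238 and 17924686 reads per library, so counting error is small except for genes of few reads.

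Values were taken as log2(FPKM + 1) for the 13441 genes with at least 1 FPKM in at least 3 libraries and fitted by group with limma 3.58.1 (R 4.3.3, eBayes with a trend), with Benjamini-Hochberg adjustment. Ratios were compared by exact permutation tests in scipy 1.17.1. The procedure was tested on simulated data. The genes and lists were chosen with earlier results of these data known. Named genes are all 10 members and, in each other list, up to 3 called genes with the largest change and the most abundant gene. Any other gene was named with its values already in view. Alternatives covered the pseudocount, filters, scalings, variance model, voom on recovered reads, the replicate block, each library left out and the fold threshold.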

Additional observations from a re-analysis of the deposited data

How the results depend on the processing

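The calls of P2rx7 and P2ry6 held under every alternative run except scaling by the Y-linked genes, which left 0 of the 7 tested genes called higher and 1 lower (Adora2b), against 0.632% and 38.5% of all tested genes. The adjusted p alone gave 5 higher and 1 lower. Of the other pathway genes, 3 were called higher and 7 lower. The Y-linked scaling gave 0 and 23 and the adjusted p alone 32 and 22. By voom on recovered reads 7 were higher and 9 lower (9.13% and 13.9% of all tested genes), and by voom on genes with at least 10 reads, chosen after seeing the data, 8 were higher and 13 lower (10.7% and 15.5% of its genes). Leaving out each library in turn gave 2 and 0 of the 7 tested genes and 3 and 7 of the tested others in every fit.

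The Y-linked scaling reversed P2rx4 (-0.83), P2ry2 (-0.41), Adora2a (-0.67), Entpd1 (-0.34), P2rx1 (-0.24), P2ry10 (-0.012), Lrrc8d (-0.72), Bst1 (-0.68), Il1b (-0.37), Gnai2 (-0.78) and Atf1 (-0.53), with the median of all genes at -0.83. The untested Adora3 also turned, from 0.31 to -0.10, as did P2ry13, from 0.61 to -0.032. Quantile normalisation moved that median to 0.10. For each of these the cause was not tested.

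Same-numbered libraries did not deviate together (correlations of -0.10, -0.086 and -0.024), so the replicate number was not taken as a pairing. With it as a block 2 of the 7 tested genes were higher and 0 lower, and 3 and 7 of the tested others, with no call changed.

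P2ry14, Adora3 and Nt5e rested on 31 to 110 reads per library, which limits their precision.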
